A study of Homo sapiens with 4 samples.

Results

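Histones package DNA into nucleosomes, each built on a core of H2A, H2B, H3 and H4, while the linker histone H1 sits where DNA enters and leaves. Most of the genes for these proteins lie in dense clusters and are expressed mainly in S phase, when new DNA has to be packaged. Their mRNAs are unusual in that they end in a short stem-loop bound by SLBP rather than in a poly(A) tail, although some of these genes can also give longer, polyadenylated transcripts. H1-10 is a linker histone gene outside the clusters whose mRNA is polyadenylated. Histone genes were taken from the expression table by symbol alone (H1-, H2AC, H2BC, H3C or H4C followed by a number, or the older HIST names), which gave 51 of 19626 genes. The 50 described here comprised 7 H1, 12 H2A, 12 H2B, 10 H3 and 9 H4 genes.

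The libraries came from ES-2, an established human ovarian clear cell carcinoma line that carries an endogenous YAP1-MAML2 (YM) fusion. All cells were infected with pLKO.1-based lentivirus, carrying either a nontargeting control shRNA (shCtl, n = 2) or shM2-3, an shRNA against a MAML2 sequence that the fusion shares (n = 2). By the labels, infections lasted 8 h on consecutive days and RNA was isolated 96 h after the first, whereas the methods of the study give a shorter exposure to virus, more days of infection and a shorter time to RNA. This is 1 cell line and 1 shRNA, so loss of the fusion, loss of MAML2 and any other action of this shRNA cannot be told apart. Libraries carried no strand information, and the sources used here do not state whether RNA was selected by its poly(A) tail.

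Estimated counts summed to between 20051083 and 23978660 per library, and the 50 histone genes took between 0.0136% and 0.0213% of them. The targeted gene MAML2 was counted 1435.7 and 1401.6 times under shCtl but 633.7 and 553.5 times under shM2-3 (log2 fold change -1.40; edgeR quasi-likelihood, adjusted p = 5.18e-10). Of 6 epithelial marker genes, 3 had an RPKM above 1 (KRT7, KRT8 and KRT18), with a summed RPKM of 637 in each shCtl library against 312 and 316 for shM2-3, while EPCAM, CDH1 and KRT19 were near 0. Of 4 genes listed for Mullerian and clear cell tumours, only ARID1A passed an RPKM of 1 (13.89 and 13.35 in shCtl, 16.6 and 17.4 in shM2-3). It made up most of their summed RPKM (from 13.6 to 14.6 in shCtl and from 17.1 to 18.2 in shM2-3). PAX8 and NAPSA, which are used to recognise the labelled tumour type, and WT1 were near 0. Neither the level of ARID1A nor that of WT1 is read here as a mark of that tumour type. Fibroblast markers (1 of 6 above an RPKM of 1) summed to 0.91 to 1.10 in shCtl and 1.66 to 1.72 in shM2-3, and leukocyte markers (1 of 6) to 0.573 to 1.22 and 1.05 to 3.35. The part of these marker shifts in the histone values was not tested.

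The stem-loop that ends replication-dependent histone mRNAs was searched for in the 120 bases after each stop codon in hg38 (GENCODE v44). A match does not show that a gene lacks polyadenylated transcripts, since some genes with a stem-loop can also give these. The stem-loop was found in 48 of 50 genes, including 43 of 43 core histone genes. H1-10 and H1-8, an oocyte linker histone, had no match in that window. The most frequent forms are given as DNA, 5′ to 3′, with the 6 bases on each side that pair in the stem in capitals and the loop in lower case. The first was found in 26 genes (among them H2AC6, H2BC15 and H2BC21), the second in 8 (among them H2BC12 and H2BC5), and the third in 7 genes, all of class H4.
Stem-loop of 26 genes: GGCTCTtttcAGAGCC
Stem-loop of 8 genes: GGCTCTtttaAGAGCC
Stem-loop of 7 H4 genes: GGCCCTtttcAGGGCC
The loops tttc and ttta both occurred within the H2A, H2B, H3 and H1 classes, whereas the stem GGCCCT was found in 9 of 9 H4 genes (7 as above, and H4C9 and H4C12 with the loop tttt) and in no other class. The remaining 5 forms occurred in 1 gene each (H2BC10, H3C6, H2AC11, H2AC20 and H2AC15).

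Levels of the histone genes were very uneven. RPKM, the reads per kilobase of transcript scaled to the size of the library, passed 1 in at least 1 library for 11 of 50 histone genes (22%), against 61.9% of all genes in the table. The highest count in any library was 3 or fewer for 18 genes and under 10 for 35, and only 3 genes (H1-10, H1-2 and H2BC12) had more than 50 counts in every library. H1-10, without a stem-loop, had an RPKM of 96.2 and 109.6 in shCtl and 55.5 and 53.2 in shM2-3. The other 49 genes described here together summed to 27.4 and 23.5 in shCtl and 45.3 and 44.8 in shM2-3. Among the 43 core histone genes, 16 and 18 were at 0 counts in the shCtl libraries and 11 and 7 in the shM2-3 libraries. Both shM2-3 libraries had larger totals. Over all 19626 genes, 1378 were at 0 in both shCtl libraries and 911 in both shM2-3 libraries, against 11 and 3 of the 50 histone genes. If reads are taken as independent, counting error alone limits a gene at 0 counts to 3 counts of its library. That limit does not cover reads removed as ambiguous, and a count of 0 does not show that the gene is silent.

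**Figure D1:**
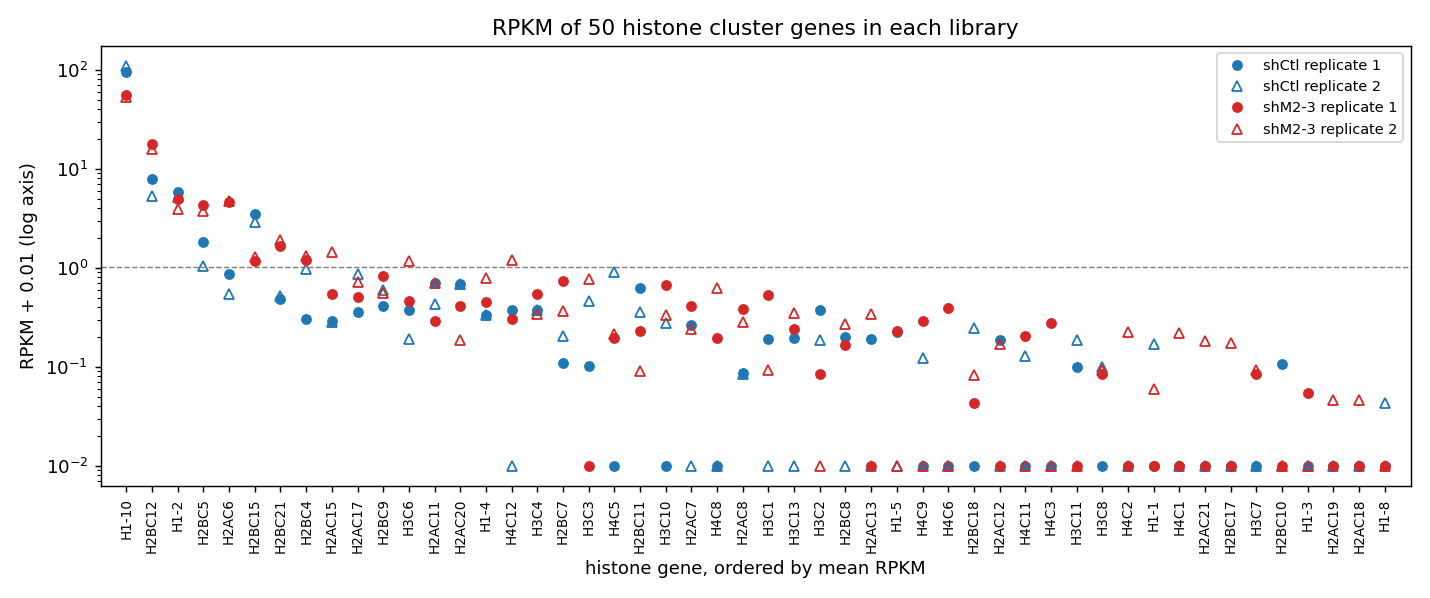
RPKM of each of 50 histone genes (x axis, ordered by mean RPKM) in the 2 shCtl (blue) and 2 shM2-3 (red) libraries, on a log axis after adding 0.01. The dashed line marks an RPKM of 1; 11 genes pass it in at least 1 library, H1-10 stands far above the rest, and most others lie at a few counts or at 0.

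Genes were also divided by whether any GENCODE transcript ends more than 200 bases past its stop codon. Of the 48 genes with a stem-loop, 10 had such a longer form and 38 did not. The mean RPKM over the 4 libraries had a median of 0.742 in the first group (from 0.085 to 2.71) and 0.141 in the second (from 0.009 to 11.7), and 6 of 10 against 4 of 38 passed the RPKM filter. H2BC12, at 11.7 the highest of all genes with a stem-loop, was in the second group. After these levels were seen, a second definition was tried that also counts a RefSeq gene span over 1000 bases as a longer form, since the authors quantified RefSeq genes. It moved H2BC12 and H3C4 to the first group (12 genes, 7 passing) and left 36 genes in the second (3 passing; median 0.118). Because this change was made with the outcome in view, the division is a description only.

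**Figure D2:**
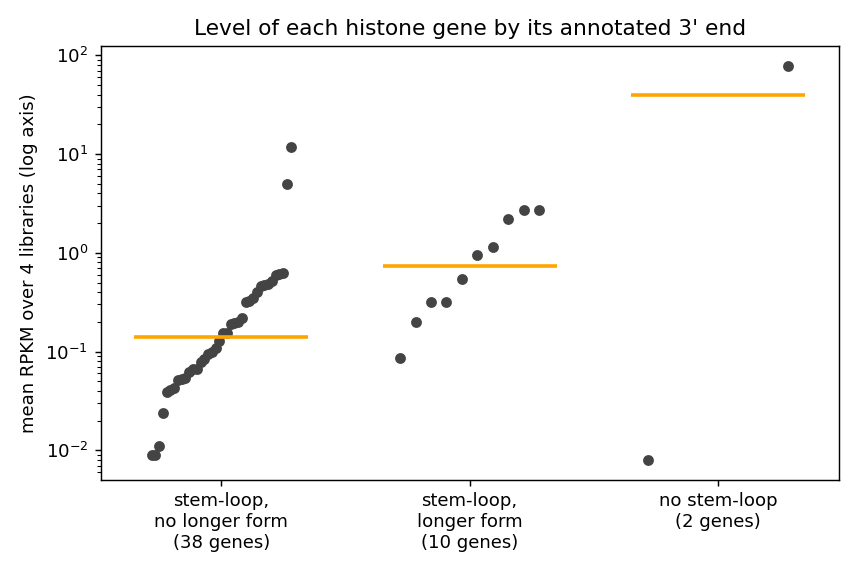
Mean RPKM over the 4 libraries (log axis) of each histone gene, by stem-loop and by a GENCODE form ending over 200 bases past the stop; the orange bar is the median. Genes with a longer form have a median of 0.742 and those without 0.141, with wide overlap, and the 2 genes with no stem-loop are H1-10, the highest of all, and H1-8, the lowest.

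The files themselves show which transcript length lay behind each RPKM, since it follows from a count divided by its RPKM and library total. The scale was set on 36 genes with 1 transcript, for which the length so derived was between 0.939 and 2.143 times the annotated one. The highest ratio belonged to H2AC18 and H2AC19, whose coding sequences are identical. For 36 of 43 core histone genes this length was between 377 and 598 bases, close to the annotated stem-loop transcripts. It was longer for H2BC5 (914 bases), H2BC12 (941), H3C4 (979), H2BC18 (1136) and H2BC21 (2359), as well as for H2AC18 and H2AC19 (1142 each). With a longer GENCODE form, H2BC4 (465 bases), H2BC11 (510), H3C6 (490), H3C10 (503) and H4C8 (401) still had a short derived length. For these, and for H2AC6 and H2BC15 below, the levels given above do not show the level of the longer form. Of the called genes described next, the RPKM of H2BC5, H2BC12 and H2BC21 thus rested on a length above that of the stem-loop form, and that of H2AC6 (579 bases) and H2BC15 (476 bases) on a length near it. Counts do not show how many reads came from each form.

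To determine whether histone genes changed in shM2-3 cells, the 11 that passed an RPKM of 1 in at least 1 library were tested together with all other such genes (12157 in all). In shM2-3 cells, H2AC6, H2BC5, H2BC12 and H2BC21 rose by 2.64- to 6.97-fold and H2BC15 fell by 1.31 on the log2 scale, whereas H1-10 fell by less than 2-fold. With calls made at an adjusted p up to 0.05 and at least a 2-fold change, 4 of 11 histone genes were called higher, against 9.24% of all genes tested, and 1 of 11 was called lower, against 8.93%. At the adjusted p alone, 4 were higher (36.3% of all genes) and 2 lower (36.4% of all genes). The median log2 fold change of the 11 genes was 1.55, against -0.004 over all genes tested. Several of these genes passed the filter only through their shM2-3 libraries (H2AC6, H2AC15, H2BC4, H2BC21, H3C6 and H4C12) and had to be higher there, and with an RPKM above 1 required in all 4 libraries the median was -0.23, so that neither the median nor the count of higher genes shows a tendency of histone genes as a group. In bulk samples, a different share of cells that express a gene and a different amount of its RNA per cell cannot be told apart, for rises and falls alike.

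**Figure D3:**
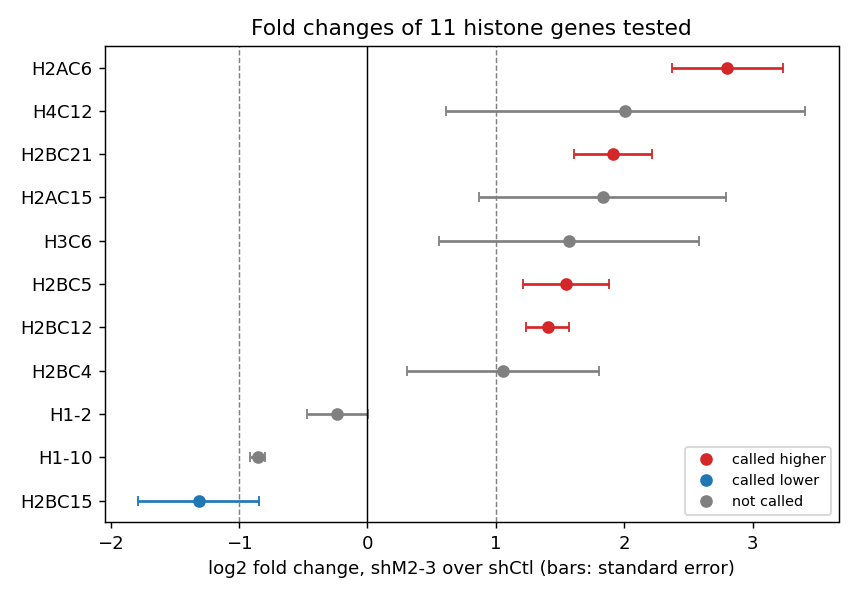
Log2 fold change of shM2-3 over shCtl for 11 histone genes tested, with bars for the standard error; dashed lines mark a 2-fold change. Called genes are coloured: H2AC6, H2BC21, H2BC5 and H2BC12 higher and H2BC15 lower. H1-10 has a narrow error but stays within the dashed lines.

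H2AC6, which encodes an H2A protein, was at 11 and 7 counts under shCtl and at 73 and 67 under shM2-3. Its RPKM was 0.860 and 0.538 in shCtl and 4.67 and 4.73 in shM2-3, so both shM2-3 libraries lay well above both controls. The log2 fold change was 2.80 (standard error 0.433, adjusted p = 5.54e-05), the largest rise among the histone genes tested. H2AC6 passed the filter only through its shM2-3 libraries, so its call had to be in that direction. H2AC6 spans chr6:26124145-26139116 of hg38 on the plus strand, and its annotated exons overlap those of a gene without a symbol. The length behind its RPKM was 579 bases, and whether the overlap lies in the counted stretch was not examined.

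H2BC12, which encodes an H2B protein, was at 165 and 113 counts under shCtl and at 451 and 362.9 under shM2-3. These correspond to an RPKM of 7.94 and 5.35 in shCtl against 17.8 and 15.8 in shM2-3, the highest level in each library of the core histone genes under the symbol rule. The log2 fold change was 1.40 (standard error 0.167, adjusted p = 4.72e-06). The coding sequence of H2BC12 (gene at chr6:27146361-27146855, minus strand) differs from that of H2BC12L at 4 positions (98.9% identity), and H2BC12L was not analysed here. The authors removed ambiguously aligned reads, so reads that fit both genes may be missing from these counts, and the value of H2BC12 is uncertain to that extent.

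H2BC21, an H2B gene in the chromosome 1 cluster (chr1:149884459-149886682, minus strand), went from 25 and 27 counts under shCtl to 106 and 110 under shM2-3. The replicates lay close to each other in both groups, with an RPKM of 0.480 and 0.510 against 1.66 and 1.91. The log2 fold change was 1.91 (standard error 0.302, adjusted p = 6.74e-05). Like H2AC6, H2BC21 passed the filter only through its shM2-3 libraries, so its call had to be in that direction. With limma on log2(RPKM + 1) the difference was 0.90, under the 2-fold limit (adjusted p = 0.000321). H2BC5 (chr6:26158122-26171349, plus strand) went from 37 and 21.1 counts to 105 and 83, or an RPKM of 1.83 and 1.03 against 4.26 and 3.72. The shCtl replicates of H2BC5 lay further apart than its shM2-3 replicates, and the groups did not overlap (log2 fold change 1.55, standard error 0.338, adjusted p = 0.00103).

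H2BC15 (chr6:27838545-27855709, plus strand) was the only one of the 11 histone genes called lower. Its counts were 37 and 31 under shCtl and 15 and 15 under shM2-3, or an RPKM of 3.52 and 2.90 against 1.17 and 1.29. Both shM2-3 libraries lay below both controls, and the log2 fold change was -1.31 (standard error 0.469, adjusted p = 0.0219). This call was lost without shCtl replicate 1, without shM2-3 replicate 1 and without shM2-3 replicate 2. The log2 fold changes there were -1.17, -1.24 and -1.39, about as large, but each of these fits leaves 1 library in a group. The call was also lost with DESeq2 (log2 fold change -1.32, adjusted p = 0.0506). With limma on log2(RPKM + 1), H2BC15 passed the adjusted p (0.000308) but not the 2-fold limit (log2 difference -0.91).

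H1-10 (chr3:129314771-129316286, minus strand), a replication-independent linker histone, was at 3418.2 and 3958 counts under shCtl and at 2409.9 and 2091.1 under shM2-3, or an RPKM of 96.2 and 109.6 against 55.5 and 53.2. It fell by 0.86 on the log2 scale (standard error 0.0575, adjusted p = 1.45e-08), a change past the adjusted p but under 2-fold. Its antisense neighbour, listed as H1FX-AS1, was at 59 and 39 counts under shCtl and at 77.1 and 72 under shM2-3, and the libraries do not separate reads on the stretch that both genes share.

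The other H1 genes described here were replication-dependent or, for H1-8, specific to oocytes. H1-2, the only one with more than a few counts, had an RPKM of 5.83 and 5.16 in shCtl and 5.01 and 3.90 in shM2-3, and this difference did not pass the test (log2 fold change -0.23, standard error 0.237, adjusted p = 0.388). H1-4 had 6 and 6 counts against 10 and 16. H1-5 had 4 and 0 against 5 and 0, H1-1 had 0 and 3 against 0 and 1, and H1-3 and H1-8 had 1 count each over all 4 libraries. None of H1-1, H1-3, H1-4, H1-5 and H1-8 passed the filter, and none passed the adjusted p in edgeR's quasi-likelihood fit without a filter. How large a change could be seen at these counts was not tested.

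Of the other core histone genes tested under the symbol rule, none passed the adjusted p in edgeR's quasi-likelihood test, whereas H2AC15 (adjusted p = 0.0104), H3C6 (0.0333) and H4C12 (0.0275) did in its likelihood ratio test. H2AC15 went from 3 and 3 counts to 7 and 17 (log2 fold change 1.83, standard error 0.959, adjusted p = 0.101) in the quasi-likelihood test, but it passed the adjusted p with limma on log2(RPKM + 0.1) (log2 difference 1.38, adjusted p = 0.032) and on log2(RPKM + 1) (0.59, under the 2-fold limit, adjusted p = 0.0437). H2BC4 had 3 and 10 against 15 and 15 (log2 fold change 1.05, adjusted p = 0.22). The annotated exons of H2BC4 overlap those of HFE and of the same gene without a symbol as H2AC6. Whether these overlaps lie in the counted stretch was not examined. H3C6, the gene of highest mean RPKM among the H3 genes under the symbol rule, had 4 and 2 against 6 and 14 (log2 fold change 1.57, adjusted p = 0.176). H4C12 had 3 and 0 against 3 and 11 (log2 fold change 2.01, adjusted p = 0.211), and its coding sequence is identical to that of H4C11, which had 0 and 1 against 2 and 0. H2AC15, H3C6 and H4C12 passed an RPKM of 1 in shM2-3 replicate 2 alone, and without that library their log2 fold changes were 0.98, 0.76 and 0.74. Without shCtl replicate 1, that of H4C12 was 5.81, a fitted value against a library at 0 counts and no bound. H3C4 and H4C5, next in level in their classes, were not tested and had 8 and 8 against 14.1 and 8, and 0 and 8 against 2 and 2.

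The 39 histone genes below the filter had at most 16 counts in any library. Their mean CPM, the count scaled to library size, was higher in shM2-3 for 28 (71.8%) and lower for 11, where 55.8% of all 7469 genes below the filter had a higher mean. Both shM2-3 libraries lay above both shCtl libraries for 7 of 39 (17.9%, against 24.7% of genes below the filter) and below them for 4 of 39 (10.3%, against 18%). These shares are a description with no test. In edgeR's quasi-likelihood fit without a filter, 0 of 39 passed the adjusted p and 0 had an unadjusted p of 0.05 or less, with a smallest adjusted p of 0.121.

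RPKM was also summed over the genes of each core histone class. The H2B sum was 15.5 and 12.1 in shCtl against 27.99 and 25.5 in shM2-3, and the H2A sum 3.55 and 2.84 against 7.15 and 8.98. The H3 sum was 1.65 and 1.71 against 2.63 and 3.17, and the H4 sum, the lowest, was 0.362 and 1.12 against 1.80 and 2.44. Each core class sum was higher in both shM2-3 libraries, with ratios of shM2-3 to shCtl of 2.52 for H2A, 1.94 for H2B, 1.72 for H3 and 2.86 for H4. For H2B, whose genes differ in the length behind RPKM, the ratio by CPM was 2.32. These ratios are a description with no test. Much of the H2A rise lay in H2AC6, whose mean RPKM went from 0.699 to 4.7 while the class mean went from 3.195 to 8.066. Much of the H2B rise lay in H2BC12, from 6.64 to 16.8 while the class mean went from 13.8 to 26.7. The sums thus do not show a rise shared by the genes of a class. The H4 genes together took only 3 counts in shCtl replicate 1 and 10 in replicate 2. In shM2-3 they took 19 in replicate 1 and 23 in replicate 2. The H4 ratio was 5.86 without shCtl replicate 2 and 1.89 without shCtl replicate 1. Over the untested genes alone, the ratio was 1.08 for H2A, 1.24 for H2B, 1.48 for H3 and 2.45 for H4, but a gene could enter the tested set through its shM2-3 libraries, so this split is not independent of the change. The untested H4 genes summed to 0 in shCtl replicate 1, and without that library their ratio was 1.22. That of the untested H2A genes was 0.88 without shM2-3 replicate 2 and 0.99 without shCtl replicate 2.

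**Figure D4:**
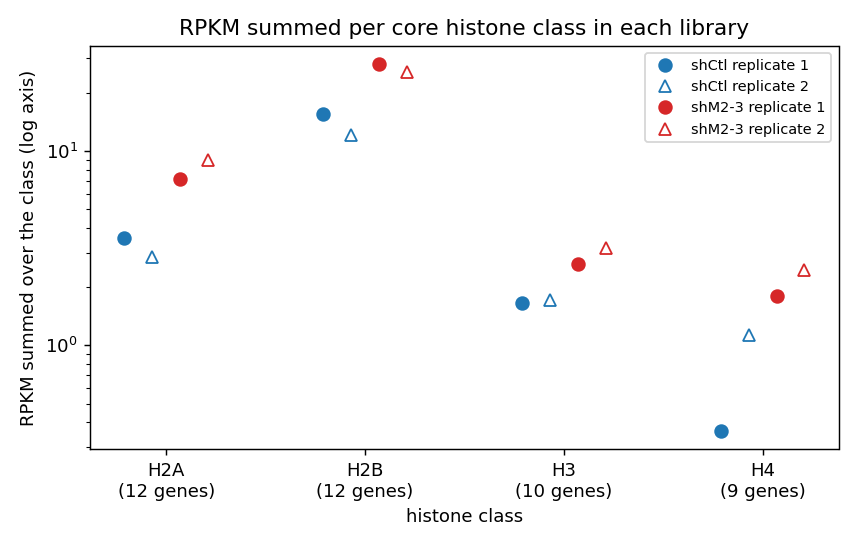
RPKM summed over all genes of each core histone class (log axis) in the 2 shCtl (blue) and 2 shM2-3 (red) libraries. The sums of H2A, H2B, H3 and H4 are higher in both shM2-3 libraries, and H2B has the highest sum in each library.

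H2A and H2B genes often start head to head and share the stretch between them. In the table, 8 such pairs had starts between 170 and 251 bases apart. H2BC12 rose while its partner H2AC12 was at 2 and 0 counts under shCtl and at 0 and 2 under shM2-3. H2BC21 rose while H2AC20 had 7 and 7 against 5 and 2. H2AC6 rose, and its partner H2BC4 had the values given above. H2BC15 fell while H2AC15 had 3 and 3 against 7 and 17. In each of these pairs the called gene had more counts than its partner in at least 3 of 4 libraries, and the partner did not pass the test or was too low to be tested. Whether partners differ in their response was not tested.

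**Figure D5:**
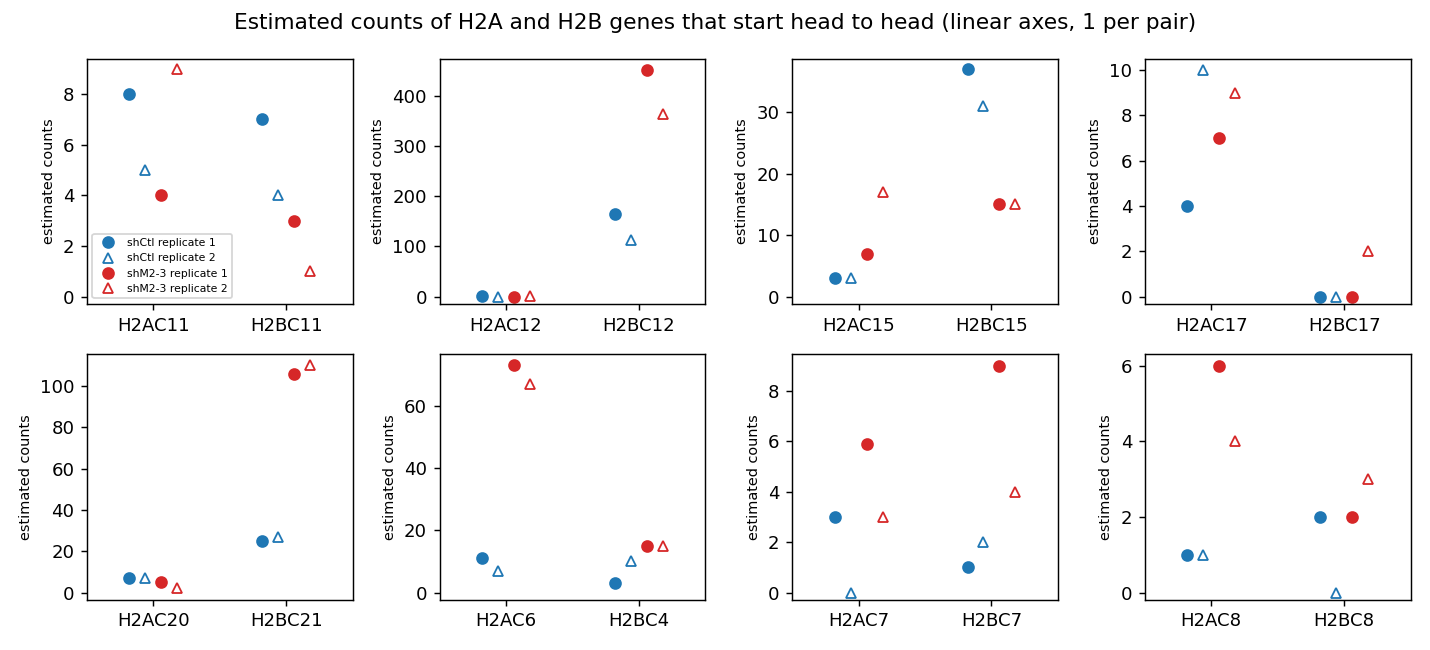
Estimated counts of the 8 pairs of H2A and H2B genes that start head to head, 1 linear axis per pair, in the 2 shCtl (blue) and 2 shM2-3 (red) libraries. H2BC12, H2BC21 and H2AC6 are higher in both shM2-3 libraries, and H2BC15 lower. Their partners H2AC12 and H2AC20 stay at 7 counts or fewer, while H2BC4 (3 and 10 against 15 and 15) and H2AC15 (3 and 3 against 7 and 17) also lie higher in shM2-3.

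To show what the called genes share at their starts, the 90 bases upstream of the RefSeq start are printed from the RefSeq promoter table (GRCh38.p14, which matches hg38 there), in the direction of the gene. For H2AC6 and H2BC15 a GENCODE transcript starts earlier, and the last 27 and 24 bases of the window lie inside the gene spans given above. Capitals mark the octamer ATTTGCAT, known as the site of the octamer factor in H2B promoters, the CCAAT box and the TATA box (TATAAA), on either strand, and no marked motif overlaps another.
H2AC6, chr6:26124082-26124171, plus strand: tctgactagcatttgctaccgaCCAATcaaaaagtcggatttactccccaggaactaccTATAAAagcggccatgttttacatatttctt
H2BC12, chr6:27146856-27146945, minus strand: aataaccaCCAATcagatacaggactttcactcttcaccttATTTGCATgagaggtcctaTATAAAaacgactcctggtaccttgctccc
H2BC15, chr6:27838479-27838568, plus strand: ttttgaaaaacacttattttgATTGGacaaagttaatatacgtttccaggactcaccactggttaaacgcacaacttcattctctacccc
H2BC21, chr1:149886683-149886772, minus strand: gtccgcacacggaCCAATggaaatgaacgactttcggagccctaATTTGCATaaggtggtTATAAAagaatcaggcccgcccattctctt
H2BC5, chr6:26158032-26158121, plus strand: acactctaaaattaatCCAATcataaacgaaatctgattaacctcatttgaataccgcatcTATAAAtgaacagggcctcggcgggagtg
The genes called higher all had a CCAAT box and TATAAA in these windows, and H2BC12 and H2BC21 also the octamer. H2BC15, called lower, had the CCAAT box on the opposite strand and no match to the other motifs.

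Over the 250 bases upstream, 46 of 50 histone genes were in the promoter table. The octamer was present in 10 of 12 H2B, 7 of 11 H2A, 1 of 9 H3, 0 of 7 H1 and 0 of 7 H4 promoters, and in 2.03% of all 27305 genes. CCAAT was present in 12 of 12 H2B, 11 of 11 H2A, 9 of 9 H3, 6 of 7 H1 and 2 of 7 H4 promoters, and in 37.0% of all genes. TATAAA was present in 7 of 12 H2B, 9 of 11 H2A, 7 of 9 H3, 4 of 7 H1 and 3 of 7 H4 promoters, and in 13.0% of all genes. The letters GGAATG, the core of the site bound by TEAD, the DNA-binding partner of YAP1, were present in H1-3, H1-8 and H4C8 and in 14.3% of all genes. Head-to-head genes share part of these windows, so the counts for H2A and H2B are not independent, and a match is a description of the sequence, not a site in use.

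Histone genes outside the symbol rule were compared next. Of 7 such variant genes tested, 4 were lower (36.4% of all genes) and 1 higher (36.3%) at the adjusted p, 1 was called lower (8.93% of all genes) and 0 higher (9.24%), and the median log2 fold change was -0.14. H2AJ, an H2A variant gene, fell from an RPKM of 8.00 ± 0.245 to 3.54 ± 0.00417 (SD, n = 2 each), a log2 fold change of -1.11 (adjusted p = 9.25e-08). CENPA, the centromeric H3 variant, fell by 0.96 on the log2 scale (adjusted p = 2.01e-06), H2AZ1 fell by 0.32 (adjusted p = 2.72e-05) and MACROH2A1 fell by 0.14 (adjusted p = 0.0188). H2AZ2, the near-identical protein partner of H2AZ1, rose by 0.69 (adjusted p = 2.8e-08). H2AX (-0.09, adjusted p = 0.397) and H3-3B, a gene for the replacement histone H3.3 (0.04, adjusted p = 0.464), did not pass. H3-3A, another H3.3 gene, was at 11.1 and 0 counts under shCtl and at 16.7 and 5.6 under shM2-3, and was not tested. A further 2 core histone genes that neither the symbol rule nor this list holds were picked out after their values were seen. H2AW, an H2A gene, had an RPKM of 6.28 and 6.94 in shCtl and 3.87 and 2.80 in shM2-3, so both shM2-3 libraries lay below both controls, and it fell by 0.91 on the log2 scale, under the 2-fold limit (adjusted p = 0.015). H4-16, an H4 gene, was at 11 and 5 counts under shCtl and at 6 and 18 under shM2-3, and the groups overlapped (log2 fold change 0.45, adjusted p = 0.632).

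Genes that act on histone mRNA or handle histone proteins were counted against the same shares over all genes (36.4% lower and 36.3% higher at the adjusted p, 8.93% and 9.24% called). Of 29 histone mRNA transcription and processing factors tested, 6 were lower and 12 higher at the adjusted p and only CCNE2 was called (9.4 and 18.3 counts under shCtl, 106.3 and 98.4 under shM2-3; log2 fold change 2.77, adjusted p = 1.57e-05), with a median of 0.13. CCNE2 encodes cyclin E2, which acts at S phase entry. It passed the filter only through its shM2-3 libraries (RPKM 0.148 and 0.282 in shCtl against 1.36 and 1.39). Its call, here and among the S phase genes below, thus had to be in that direction. LSM11, a component of the U7 particle that cleaves histone pre-mRNA, had the lowest value and fell by 0.70 (adjusted p = 1.99e-05). Of 34 chaperones, 11 were lower and 12 higher, 2 were called lower (HJURP, the CENPA chaperone, -1.35, adjusted p = 1.5e-10; and NPM1, -1.21, adjusted p = 3.26e-11) and 0 higher, with a median of 0.06. CHAF1A, the large subunit of CAF-1, had the highest value among the chaperones (0.84, adjusted p = 9.27e-07).

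Of 50 S phase replication genes, 27 were lower and 11 higher at the adjusted p (36.4% and 36.3% of all genes), and 6 were called lower (8.93% of all genes; CDT1, ORC1, PRIM2, RFC4, RRM2 and TYMS, from -1.30 to -1.02) and 1 higher (9.24% of all genes; CCNE2), with a median of -0.28. SLBP, which binds the stem-loop and is in this list and the list of factors, fell by 0.32 (adjusted p = 1.25e-05), with an RPKM of 113.0 ± 0.627 in shCtl and 86.4 ± 1.63 in shM2-3 (SD, n = 2 each). The part of cell cycle distribution in these values and in those of the histone genes was not tested.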

How the data were processed

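RNA-seq libraries of ES-2 cells (2 shCtl, 2 shM2-3) were grouped by their labels. The authors aligned reads of 150 bases to hg38 with HISAT2 2.0.4, removed ambiguous reads and reads of low mapping quality, and quantified RefSeq genes in Partek (7.18), per the study's methods and processing notes. Deposited were estimated counts without normalization, of which 42.6% to 48.8% per library are whole (tolerance 1e-06). The deposited RPKM divides them by gene length and library size. Totals were 20051083 and 20423873 (shCtl) and 23978660 and 21813798 (shM2-3), and counting error limits genes with few counts.

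Estimated counts were rounded. The test was edgeR's (version 4.0.16 under R 4.3.3; TMM, glmQLFit, glmQLFTest, no block) over the 12157 genes that exceed an RPKM of 1 in any library. Adjusted p-values are Benjamini-Hochberg over all genes tested, and calls also need a fold change of 2. Scripts were tested on simulated data. The replicates are labelled biological. Alternatives were DESeq2 1.42.0, limma 3.58.1 on log2 RPKM, other filters, scaling, tests and fold limits, a replicate block and leaving out each library. The histone genes, the other lists and the naming rule (every called gene, every H1 gene, the highest and extreme genes of each class) were chosen with earlier results of these data known. Stem-loops, transcript forms, derived lengths, motifs and pairs were added after values were seen, as were H2BC4, H2AW, H4-16 and the partners. Some genes under these rules were fitted but are not reported here.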

Additional observations from a re-analysis of the deposited data

How the results depend on the processing

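Among the tested histone genes named by the rule, 112 values under the alternatives kept both direction and side of the threshold. Another 4 moved past it, 6 no longer passed and 0 reversed. A gene that an alternative did not test gave no value there. With DESeq2, 0 histone genes were called lower and 1 was lower at the adjusted p, while 1057 of all genes were called lower and 1118 higher. With edgeR's likelihood ratio test, 7 were called higher and 7 were higher at the adjusted p, adding H2AC15, H3C6 and H4C12, which passed the filter through shM2-3 replicate 2 alone; of all genes, 1106 were called lower and 1141 higher. With limma on log2(RPKM + 0.1), 5 histone genes were called higher, adding H2AC15. Of all genes, 1175 were then called lower and 953 higher, against 1086 and 1123 in edgeR's quasi-likelihood test. With an RPKM above 1 required in all 4 libraries, 2 histone genes were called higher and 2 were higher at the adjusted p. H2AC6 and H2BC21, called higher above, were not tested there. The median log2 fold change of the histone genes tested was -0.23 in place of 1.55. Of all genes, 695 were called lower and 707 higher, since fewer genes were tested. With limma on log2(RPKM + 1), 0 histone genes were called lower and 3 higher (H2BC15 and H2BC21 lost), and the median of those tested was 0.53. Of all genes, 724 were called lower and 596 higher there, on a scale that understates changes of low genes. With a fold limit of 1.5, 2 histone genes were called lower (H1-10 added), and 2302 of all genes were lower and 2296 higher. Leaving out each library in turn left 1 library in a group, so counts of calls are not given for these fits. The call of H2BC15 depended on the library left out, as described above. The median log2 fold change of the histone genes tested was between 0.98 (without shM2-3 replicate 2) and 1.85 (without shCtl replicate 1). Same-numbered libraries did not deviate together (r = -0.017) and share only a number; with a replicate block, 1 histone gene was called lower and 4 higher, and 1079 and 1123 of all genes. Class ratios were 2.32 for H2B by CPM, and 5.82 for H2A and 2.94 for H3 over tested genes only; leaving out each library in turn, which was added after the sums were seen, the H4 ratio ranged from 1.89 to 5.86. Depth limits the 35 histone genes with under 10 counts in every library, none of which passed the adjusted p in edgeR's quasi-likelihood fit without a filter.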
